A study of Mus musculus with 12 samples.

Results

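The integrated stress response genes followed here are 10 regulators and effectors: Atf4, Atf5, Atf3, Ddit3, Cebpb, Nupr1, Trib3, Chac1, Asns and Ppp1r15a. They were measured on Affymetrix arrays in mouse embryonic stem (ES) cells that lose Ronin, the transcription factor encoded by Thap11. A probe set was taken as a member where the platform annotation pairs it with exactly 1 of these symbols, which gave 17 probe sets for the 10 genes, of 34958 probe sets for 18194 genes on the array. The probe set with the highest mean log2 intensity over the 12 arrays stood for its gene, and the other 7 are given beside it. The knockout cells carried the alleles CreERT2; Roninflox/flox and the control cells Roninflox/flox, and both received 0.25 µM tamoxifen. RNA was taken after 1.5, 3 and 6 days, with 2 arrays for each genotype and day, and the cells were split on day 4. Tamoxifen activates the CreERT2 recombinase, which then deletes the floxed gene. The recombinase was present only in the knockout cells, so its own effects, and any difference between the ES cell lines, cannot be told apart from the loss of Ronin. The labels do not say that replicate arrays came from separate cultures, so the p-values refer only to array-to-array spread, which may be technical.

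In the integrated stress response, kinases that sense amino acid shortage, unfolded protein in the endoplasmic reticulum (ER), double-stranded RNA or haem and mitochondrial stress phosphorylate the alpha subunit of translation factor eIF2. General protein synthesis then falls, while a few mRNAs with upstream open reading frames, those of Atf4, Atf5, Ddit3 and Ppp1r15a among them, are translated more efficiently. ATF4 protein turns on genes for amino acid synthesis and transport and for redox defence, together with the feedback genes Trib3, Chac1 and Ppp1r15a. Because much of this control acts on translation, an mRNA level does not report how much of these proteins the cells made.

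Thap11 itself had intensities of 327 and 354 at day 1.5, 110.2 and 92.7 at day 3 and 50.6 and 51.5 at day 6 in knockout cells, against a range of 1181 to 1382 over the 6 control arrays. The loss of its mRNA was therefore incomplete at day 1.5. Replicate arrays correlated at 0.998 to 0.999 across the 18194 genes, each read from its brightest probe set. The array medians over all probe sets lay between 44.4 and 44.7 on the 4 arrays of day 3 and between 42.4 and 43.0 on the other 8. The summed intensity of 8 ES cell markers (Pou5f1, Nanog, Sox2, Zfp42, Esrrb, Klf4, Dppa5a and Tdgf1) was 72438 to 74151 over the knockout arrays and 71145 to 74426 over the control arrays. Marker genes were called by limma at a Benjamini-Hochberg adjusted p of 0.05. At that threshold 5.93%, 13.3% and 17.2% of all genes were higher in knockout cells on days 1.5, 3 and 6. The shares of lower genes were 3.98%, 10.0% and 15.3%. Of the 8 ES cell markers, 0, 1 and 0 were higher and 1, 2 and 1 lower on the 3 days. The sum of 8 fibroblast or feeder markers was 652 to 693, 709 to 729 and 1842 to 1905 on days 1.5, 3 and 6 in knockout cells, and 1119 to 1150.1, 499 to 509 and 1540.4 to 1707 in controls. That sum is set largely by Tagln, which read 175 to 1631 over the arrays, and it can run against the single genes: on day 6, 1 of the 8 was higher in knockout cells and 3 were lower, with a median log2 difference of -0.21, and on day 3 1 was higher and 0 lower, with a median of -0.010. Of 6 primed epiblast markers, 0, 3 and 3 were higher and 4, 0 and 2 lower in knockout cells on the 3 days, with medians of -0.80, 0.23 and 0.16. Their sum was 7039 to 7117, 7579 to 7840.4 and 6393 to 6444 in knockout cells, and 7743 to 7762, 6767 to 6842 and 7405 to 7409 in controls, and the part of these markers in the results was not tested. Fewer cells of one type and less RNA per cell cannot be told apart in such bulk RNA.

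Most members were lower in knockout cells than in controls of the same day on day 3. On day 1.5, 2 of 10 members were lower in knockout cells and 0 were higher by limma at a Benjamini-Hochberg adjusted p of 0.05, where 3.98% of all 18194 genes were lower and 5.93% higher. On day 3, 9 of 10 members were lower and 0 higher, against 10.0% of all genes lower and 13.3% higher. On day 6, 6 members were lower and 1 was higher, against 15.3% of all genes lower and 17.2% higher. The median log2 difference of the members, knockout minus control, was -0.19, -0.42 and -0.22 on the 3 days, and that of all genes was 0.0028, 0.028 and -0.0013. The 9 genes that were lower on day 3 are every member except Ppp1r15a, and the 1 that was higher on day 6 is Ddit3. Both knockout arrays lay below both controls of the day for 6, 9 and 7 members on the 3 days. They did so for 25%, 24.2% and 32.4% of all genes. They lay above both for 2, 0 and 2 members, and for 28%, 33% and 32.7% of all genes. Non-overlap of a single gene within a day was therefore common. With 1 array left out in turn, the number of lower members ranged from 0 to 5 on day 1.5, from 6 to 9 on day 3 and from 3 to 6 on day 6, and that of higher members from 1 to 2 on day 6. The day 1.5 count depends on the setting: eBayes with trend and robust called 6 lower and 1 higher. That setting also called more of all genes on day 1.5, at the count given in the last section. Its shares of higher and lower genes are not given here. With the control arrays of all 3 days averaged as the baseline, 7 members were lower on day 1.5, where 6.2% of all genes were, and 10 on day 3, where 12% were. This baseline includes controls of other days, so the drift of the controls enters these differences. Ddit3, for example, had day 1.5 means of 218 in knockout cells and 221 in controls, but was at -0.44 against this baseline. Centring each array on its median left the members at 5 lower on day 1.5 and at the same numbers on the other days, while the share of higher genes among all genes called on day 1.5 became 39.6% after centring, against 59.8% without it.

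**Figure D1:**
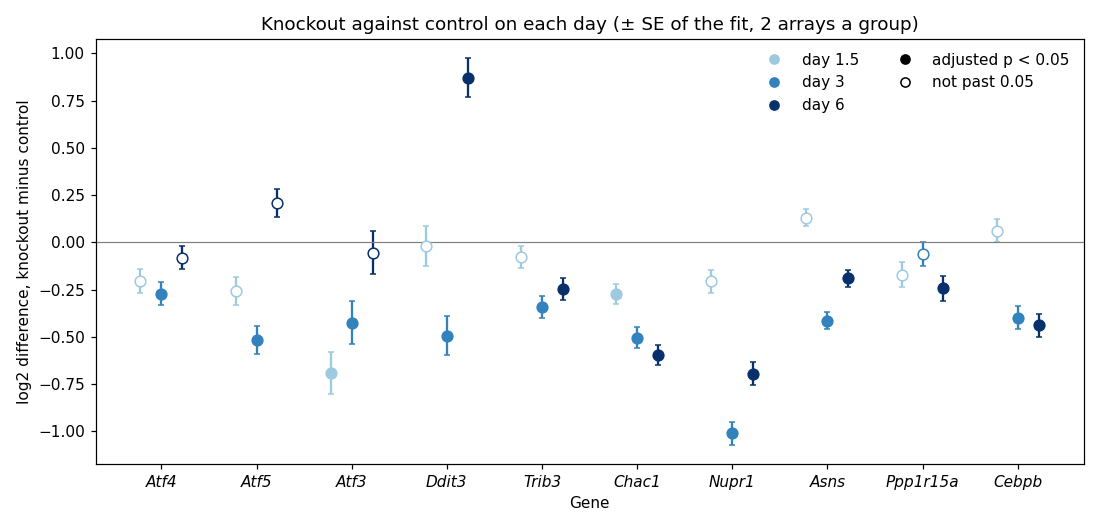
Log2 difference between knockout and control cells (y axis, log2 units) for each of the 10 members on days 1.5, 3 and 6, with bars of 1 standard error from the limma fit over 12 arrays. Filled points passed an adjusted p of 0.05 and open points did not. On day 3 all 10 points lie below 0, and on day 6 the Ddit3 point lies at 0.87 while that of Nupr1 lies at -0.70.

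Atf4, the central transcription factor of the response, was lower in knockout cells only on day 3 at this threshold. Its intensity was 4884 and 4879 on day 1.5, 4486 and 4376 on day 3 and 6214 and 5969.8 on day 6 in knockout cells. In control cells it was 5775 and 5481, 5639.6 and 5071 and 6474 and 6409 on the same days. Both knockout arrays lay below both control arrays on each day. On day 3 the log2 difference was -0.27 ± 0.061 (SE, n = 2 each, limma adjusted p = 0.012), against -0.20 on day 1.5 (adjusted p = 0.071) and -0.081 on day 6 (adjusted p = 0.38). The day 3 call was lost when only the 4 arrays of that day were fitted (adjusted p = 0.087), without knockout replicate 2 (0.063) and without control replicate 1 (0.061). Of the other probe sets of Atf4, the brighter one gave -0.044, -0.42 and 0.024 on the 3 days, none past the threshold in a fit over all 45101 probe sets, and the other was dim, at 20.6 to 28.7.

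Atf5, a close relative of ATF4 that is linked to the mitochondrial unfolded protein response in mammals, was lower in knockout cells on day 3 and lay above the controls on day 6, where the test was passed in 8 of 21 other settings but not in the fit over all 12 arrays. Its intensity in knockout cells was 267 and 300.5 on day 1.5, 265 and 259.6 on day 3 and 574 and 571 on day 6. In controls it was 333 and 346, 397 and 353 and 506 and 485. The groups did not overlap on any day, to be read with the shares over all genes given above, and the knockout arrays moved from below the controls to above them. The log2 differences were -0.26 ± 0.074 (limma adjusted p = 0.061) on day 1.5, -0.51 (adjusted p = 0.0011) on day 3 and 0.21 (adjusted p = 0.060) on day 6.

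Atf3, a stress-induced repressor that also answers to growth factor signals, was the member with the largest difference on day 1.5. Its intensity was 117 and 104 on day 1.5, 90.6 and 70.5 on day 3 and 191 and 207 on day 6 in knockout cells. In control cells it was 187 and 169, 107 and 108 and 205 and 208. The knockout arrays lay below the controls on days 1.5 and 3 and overlapped them on day 6. The log2 difference was -0.69 ± 0.11 on day 1.5 (limma adjusted p = 0.0066), -0.42 on day 3 (adjusted p = 0.025) and -0.055 on day 6 (adjusted p = 0.77). Leaving out knockout replicate 2 of day 1.5 ended the day 1.5 call (adjusted p = 0.052), and leaving out any of 3 of the 4 arrays of day 3 ended the day 3 call (adjusted p up to 0.13). In the controls Atf3 was itself lower on day 3 than on day 1.5, with a log2 change of -0.73 (adjusted p = 0.0017), as were the summed fibroblast markers given above, Tagln included. The sum of 8 extraembryonic endoderm markers moved alongside, at 484 to 526, 434 to 437 and 679 to 693 in knockout cells on the 3 days and 696 to 717, 407 to 465 and 768 to 781 in controls, and the part of either marker list in the result was not tested.

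Ddit3, which encodes the pro-apoptotic factor CHOP, showed the only higher call of a member in knockout cells, on day 6. Knockout cells had intensities of 214 and 222 on day 1.5, 233 and 259 on day 3 and 666 and 587 on day 6. Control cells had 238 and 205, 375 and 319 and 343 and 341. The groups overlapped on day 1.5, the knockout arrays lay below the controls on day 3, and on day 6 they lay above all 6 control arrays. On day 6 the same held for 22.4% of all genes. The day 6 log2 difference was 0.87 ± 0.10 (95% confidence interval 0.64 to 1.11, limma adjusted p = 0.00023), a 1.83-fold higher level, and the call held in all 21 other settings, from 0.57 to 1.08. On day 3 the difference was -0.49 (adjusted p = 0.0083). Controls of day 3 were high relative to controls of day 1.5, at means of 347 and 221, but near those of day 6, at 342. When the day 3 knockout arrays were set against the averaged controls from the other 2 days, the difference was -0.16 (adjusted p = 0.22), an alternative chosen after seeing the data. The day 3 call was also lost without knockout replicate 1 (adjusted p = 0.065) or control replicate 1 (0.058). A second, dim probe set of Ddit3, at 26.1 to 59.2, gave -0.087, -0.45 and 0.26 on the 3 days, none past the threshold.

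Cebpb, a bZIP factor that can pair with ATF4 and CHOP, was lower in knockout cells on days 3 and 6. Its intensity was 589 and 602 on day 1.5, 549 and 559 on day 3 and 562 and 552 on day 6 in knockout cells. In control cells it was 562 and 579, 706 and 756 and 723 and 791. The 6 knockout arrays stayed within a narrow band, while the control arrays of days 3 and 6 stood above it. The log2 differences were -0.40 ± 0.060 on day 3 (limma adjusted p = 0.0014) and -0.44 on day 6 (adjusted p = 0.00049), against 0.062 on day 1.5 (adjusted p = 0.60). The other Cebpb probe set gave -0.21 on day 3, not past the threshold, and -0.53 on day 6, past it.

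**Figure D2:**
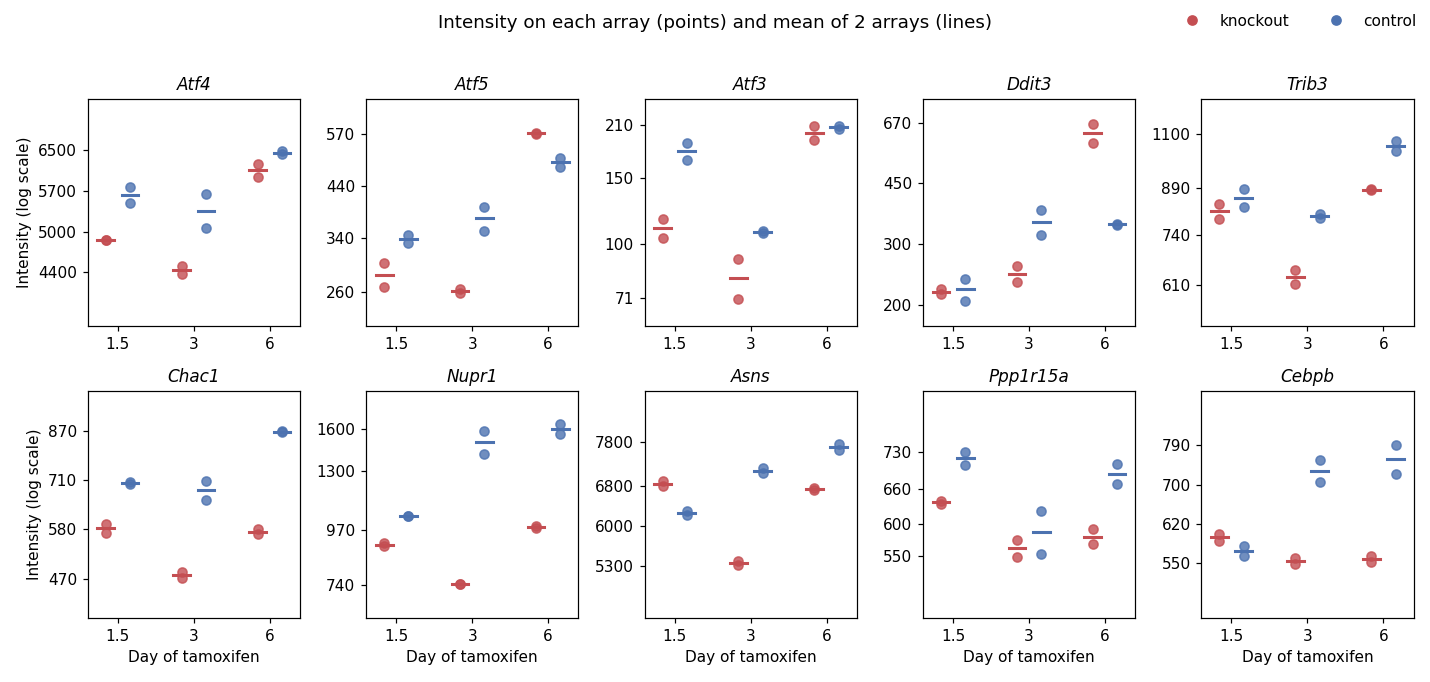
Intensity of the main probe set of each of the 10 members on every array (y axes, intensity in arbitrary units on a log scale of its own for each gene) against day of tamoxifen (x axes, days). Points are arrays, with knockout left of control on each day, and short lines are means of 2 arrays. The knockout points of Nupr1 and Chac1 lie below the control points on all 3 days, and those of Ddit3 cross from below to above between days 3 and 6.

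Nupr1, a small stress-induced chromatin protein, had the largest difference of the members on day 3 and the lowest value relative to controls on day 6. Knockout arrays read 910.4 and 896 on day 1.5, 745 and 742 on day 3 and 982 and 993 on day 6. Control arrays read 1044 and 1039.6, 1584 and 1415 and 1563 and 1639. The knockout arrays lay below the controls on every day, and the 6 of them together lay below all 6 control arrays. Taking each day alone, knockout arrays lay below all 6 controls for 7.77%, 11.3% and 16.9% of all genes. The log2 difference was -1.01 ± 0.061 on day 3 (limma adjusted p = 1.0e-05), a 2.01-fold lower level, and -0.70 on day 6 (adjusted p = 3.3e-05). On day 1.5 it was -0.21 (adjusted p = 0.067). Its other probe set gave -0.94 and -0.69 on days 3 and 6, both past the threshold.

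Chac1, which degrades glutathione, was lower in knockout cells on all 3 days. Its intensity in knockout cells was 570.0 and 591 on day 1.5, 473 and 484 on day 3 and 567 and 579 on day 6. In controls it was 704 and 698, 706 and 653 and 863 and 868. Here too the 6 knockout arrays lay below all 6 control arrays. The log2 differences were -0.27 (limma adjusted p = 0.014), -0.50 (adjusted p = 0.00019) and -0.60 ± 0.054 (adjusted p = 4.0e-05) on days 1.5, 3 and 6. Leaving out any 1 of the 4 arrays of day 1.5 ended the call of that day (adjusted p from 0.056 to 0.096), as did fitting those 4 arrays alone (0.088).

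Asns, the asparagine synthetase and a long-used readout of amino acid shortage, lay above the controls on day 1.5 and was lower on days 3 and 6. In knockout cells the intensity was 6900.4 and 6795 on day 1.5, 5317 and 5389 on day 3 and 6713 and 6757 on day 6. In control cells it came to 6215 and 6296, 7074 and 7199.9 and 7756 and 7606. The groups did not overlap on any day. The log2 differences were 0.13 ± 0.045 (limma adjusted p = 0.11), -0.41 (adjusted p = 0.00022) and -0.19 (adjusted p = 0.011) on the 3 days. The day 6 call was lost without any of 3 of the 4 arrays of that day (knockout replicates 1 and 2 and control replicate 1, adjusted p from 0.053 to 0.069). Its second probe set gave -0.37 on day 3, past the threshold, and -0.16 on day 6 (adjusted p = 0.10).

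Trib3, a pseudokinase that restrains ATF4 and CHOP, was lower in knockout cells on days 3 and 6. The knockout intensities were 789 and 836 on day 1.5, 612 and 647 on day 3 and 886 and 882 on day 6. The control intensities were 886 and 828, 805 and 792 and 1031 and 1068. The groups overlapped on day 1.5 and not on days 3 and 6. The log2 differences were -0.077 ± 0.058 (limma adjusted p = 0.48), -0.34 (adjusted p = 0.0026) and -0.25 (adjusted p = 0.0096) on the 3 days, and the second probe set gave -0.26 and -0.29 on days 3 and 6, both past the threshold. The day 6 call was lost without knockout replicate 2 (adjusted p = 0.052) or control replicate 2 (0.064). The main probe sets of Trib3 and Asns carry a suffix by which the manufacturer marks probes that may also bind other transcripts. Such suffixes also mark those of some list genes named below: Gpt2, Shmt2, Cbs, Vldlr, Eif4ebp1, Trib2, Xbp1, Clpp, Htra2 and Hspe1.

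Ppp1r15a, which encodes GADD34, the inducible subunit that returns eIF2alpha to its unphosphorylated form, was lower in knockout cells on day 6. Its intensity in knockout cells was 639 and 634 on day 1.5, 549.5 and 575 on day 3 and 591 and 569 on day 6. In controls it was 729 and 705, 621 and 554 and 668 and 706. The groups overlapped only on day 3. The log2 differences were -0.17 ± 0.066 (limma adjusted p = 0.15), -0.062 (adjusted p = 0.58) and -0.24 (adjusted p = 0.019) on the 3 days. The day 6 call was lost without knockout replicate 1, knockout replicate 2 or control replicate 2 of that day (adjusted p from 0.051 to 0.11).

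Several of these genes share a known control element, the C/EBP-ATF response element, through which ATF4 and its bZIP partners are known to act. The promoters of the 4 members that hold it upstream of the start are shown, with that of Ddit3 beside them. The element was searched here on both strands as TGATGNAA in 250 bases before and 50 after each RefSeq start (GRCm38.p6). It was present in the promoters of 5 of 10 members, and 3.97% of 32851 promoters hold it. Atf4, Atf5, Ddit3, Cebpb and Ppp1r15a had no match, and of these Cebpb and Ppp1r15a were lower in knockout cells on day 6. On day 3 Atf4, Atf5, Ddit3 and Cebpb were lower, as were the members with a match. Atf3, which holds a match, was not called on day 6. The stretches below are the 250 bases before the start, 5′ to 3′ on the gene's strand, with the match in capitals where there is one. They lie at chr7:126625471-126625720 (minus strand) for Nupr1, chr2:119350992-119351241 (plus strand) for Chac1, chr6:7693210-7693459 (minus strand) for Asns, chr1:191183334-191183583 (minus strand) for Atf3 and chr10:127290543-127290792 (plus strand) for Ddit3, the member that was higher on day 6 and that has no match in this window.
Nupr1: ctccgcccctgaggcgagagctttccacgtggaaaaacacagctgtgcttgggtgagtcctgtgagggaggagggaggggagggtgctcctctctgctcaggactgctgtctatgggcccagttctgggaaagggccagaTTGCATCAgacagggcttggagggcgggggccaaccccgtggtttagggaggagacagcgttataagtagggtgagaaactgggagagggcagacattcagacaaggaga
Chac1: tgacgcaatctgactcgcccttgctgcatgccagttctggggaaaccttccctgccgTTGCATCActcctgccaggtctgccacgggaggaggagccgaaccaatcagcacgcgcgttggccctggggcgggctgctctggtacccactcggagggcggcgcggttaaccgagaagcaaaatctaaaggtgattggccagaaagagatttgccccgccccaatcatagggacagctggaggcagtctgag
Asns: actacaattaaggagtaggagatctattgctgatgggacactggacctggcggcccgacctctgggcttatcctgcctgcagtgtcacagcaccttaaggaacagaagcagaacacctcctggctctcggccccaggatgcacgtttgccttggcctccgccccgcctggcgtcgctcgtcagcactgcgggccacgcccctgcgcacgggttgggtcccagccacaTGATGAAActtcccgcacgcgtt
Atf3: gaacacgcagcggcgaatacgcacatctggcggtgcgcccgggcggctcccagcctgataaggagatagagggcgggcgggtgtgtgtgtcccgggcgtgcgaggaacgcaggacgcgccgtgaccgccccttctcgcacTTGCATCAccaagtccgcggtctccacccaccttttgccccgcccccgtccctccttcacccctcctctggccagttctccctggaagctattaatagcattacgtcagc
Ddit3: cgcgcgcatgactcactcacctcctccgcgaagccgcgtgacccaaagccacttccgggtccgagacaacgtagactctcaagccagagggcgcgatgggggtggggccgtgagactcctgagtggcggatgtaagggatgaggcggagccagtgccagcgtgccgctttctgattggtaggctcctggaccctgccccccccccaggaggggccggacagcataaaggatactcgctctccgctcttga
Relative to the start, the match begins at -110 in Nupr1 and Atf3, -193 in Chac1, -23 in Asns and 14 in Trib3, in bases. Nupr1, Chac1 and Atf3 hold the same 8 letters, TTGCATCA, read on the gene's strand. The cyclic AMP response element TGACGTCA was found in Ppp1r15a alone, at -12, and 1.79% of all promoters hold it. The ER stress element (0.119% of all promoters) and the Ronin motif (2.00%) were in 0 of the 10 members' windows. These matches describe letters in the window and not binding.

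The time course of each genotype separates the drift of the controls from the behaviour of the knockout cells. In controls, 4 members were higher and 2 lower on day 3 than on day 1.5, where 9.12% of all genes were higher and 18.2% lower. The higher ones were Ddit3 (0.65), Nupr1 (0.52), Cebpb (0.36) and Asns (0.19), in log2 units, and the lower ones Atf3 (-0.73) and Ppp1r15a (-0.29). Without control replicate 1 of day 1.5 the calls of Asns and Ppp1r15a were lost (adjusted p = 0.071 and 0.067), and without control replicate 2 of day 3 that of Ppp1r15a (0.060). On day 6, 7 members were higher in controls than on day 1.5 and 0 were lower, where 1.09% of all genes were higher and 0.473% lower. These were Ddit3 (0.63), Nupr1 (0.62), Atf5 (0.55), Cebpb (0.41), Chac1 (0.30), Asns (0.30) and Trib3 (0.29). Both day 6 control arrays lay above both day 1.5 control arrays for 9 of 10 members, the exception being Ppp1r15a, and for 25.4% of all genes. The calls of this contrast are fragile: with only its 4 arrays, limma called 0 of 18194 genes, although 2486 genes (13.7%) and 9 of 10 members had an unadjusted p under 0.05. With 1 array left out in turn it called 18 to 259 genes and 0 to 6 members. The share of higher genes among all called on day 6 was 47.3% after median centring of the arrays, which called 5 members, against 69.8% without it. For day 3 it was 44.8% after quantile normalization, against 33.4% without.

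In knockout cells, 5 members were lower on day 3 than on day 1.5 and 0 were higher, where 13.7% of all genes were lower and 6.97% higher. They were Atf3 (-0.46), Trib3 (-0.37), Asns (-0.36), Chac1 (-0.28) and Nupr1 (-0.28). With 1 array left out the count ranged from 3 to 6: leaving out any 1 of the 4 knockout arrays of these days ended the call of Nupr1 (adjusted p up to 0.069), and leaving out knockout replicate 1 of day 1.5 or knockout replicate 2 of day 3 ended that of Atf3 (adjusted p = 0.12 and 0.097). Without knockout replicate 2 of day 1.5 that of Chac1 was lost (0.054). On day 6, 4 members were higher than on day 1.5 and 0 were lower, where 15.9% of all genes were higher and 14.3% lower. They were Ddit3 (1.52, adjusted p = 9.4e-06), Atf5 (1.01, 1.4e-05), Atf3 (0.85, 0.00046) and Atf4 (0.32, 0.0038). The other 6 members did not pass: -0.13 for Ppp1r15a, -0.096 for Cebpb, -0.024 for Asns, -0.019 for Chac1, 0.12 for Trib3 and 0.13 for Nupr1. For day 3, 33.8% of all called genes were higher in knockout cells than on day 1.5, but 68.0% after median centring and 43.8% after quantile normalization, with the same number of members called after centring. The lower day 6 calls of Nupr1, Chac1, Cebpb, Asns and Trib3 in knockout cells stand beside controls that were higher on day 6 than on day 1.5. With the 6 control arrays averaged over all days, 3 members were higher on day 6 (Ddit3, Atf5 and Atf3), where 23.5% of all genes were, and 4 were lower (Nupr1, Chac1, Cebpb and Ppp1r15a), where 17.2% were.

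**Figure D3:**
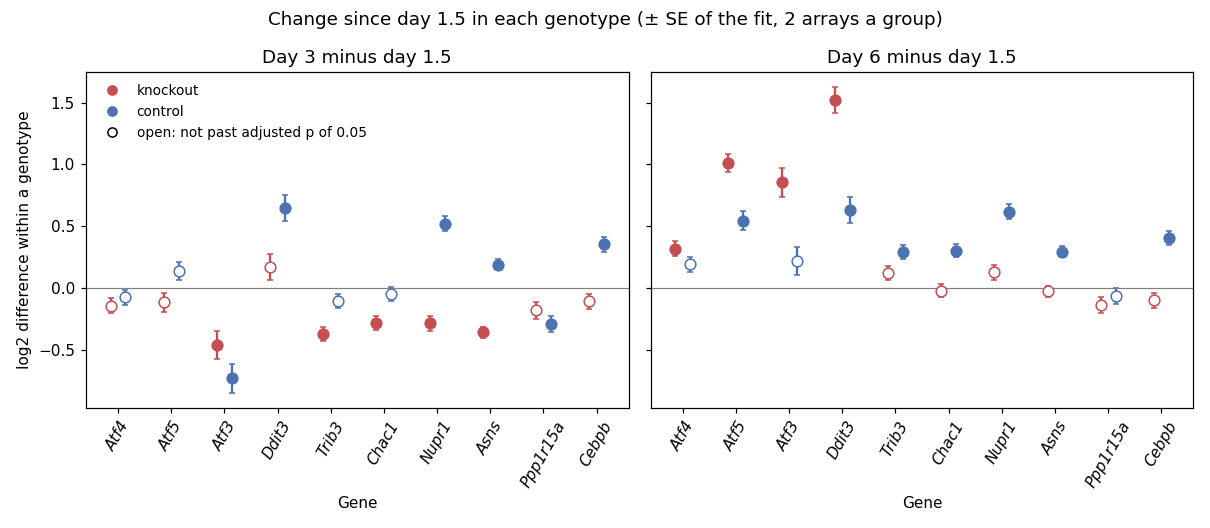
Log2 difference of day 3 and of day 6 from day 1.5 (y axes, log2 units) within knockout cells and within control cells for each of the 10 members, with bars of 1 standard error from the limma fit over 12 arrays. Filled points passed an adjusted p of 0.05 and open points did not. On day 6 the knockout points of Ddit3, Atf5, Atf3 and Atf4 lie above the control points, and those of the other 6 genes lie below.

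The change of the knockout effect itself was tested as an interaction, which removes the drift common to both genotypes. All of these contrasts share arrays with the within-day ones, so they are no separate evidence. Between days 1.5 and 3 the effect moved down for 3 members and up for 0, where it moved down for 7.34% of all genes and up for 7.62%. These were Nupr1 (-0.80 ± 0.086, limma adjusted p = 0.00055), Asns (-0.55, 0.00085) and Cebpb (-0.46, 0.0075). The count was 3 to 5 with 1 array left out and 6 with trend and robust, a setting whose share over all genes is not given here. Between days 1.5 and 6 it moved up for 3 members and down for 4, where it moved up for 9.32% and down for 10.0% of all genes. It moved up for Ddit3 (0.89, adjusted p = 0.0030), Atf3 (0.64, 0.022) and Atf5 (0.47, 0.014), and down for Cebpb (-0.50), Nupr1 (-0.49), Asns (-0.32) and Chac1 (-0.32). The call of Atf3 was lost in 5 of 20 other settings (adjusted p up to 0.079) and that of Chac1 in 4 (up to 0.063), each with 1 array of day 1.5 or 6 left out, and that of Ddit3 in 1, the mean of its probe sets (0.070). Between days 3 and 6 it moved up for 4 members, Ddit3 (1.36), Atf5 (0.72), Nupr1 (0.31) and Asns (0.23), and down for 0, where it moved up for 7.69% and down for 8.75% of all genes. For Nupr1 and Asns that last call is marginal (adjusted p = 0.038 and 0.043). It was lost in 14 of 19 other settings for Nupr1 and in 16 of 19 for Asns (adjusted p up to 0.12 and 0.12), and with 1 array left out 2 or 3 members were called. Median centring changed the share of upward changes among all called genes to 67.4% between days 1.5 and 3, against 50.9% without it, and to 58.8% between days 1.5 and 6, against 48.2%, with the same numbers of members called in those 2 intervals.

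Across the 12 arrays the members did not move as 1 block. Pearson's r of log2 intensity was 0.92 between Atf4 and Atf3, 0.90 between Atf5 and Atf4 and 0.90 between Cebpb and Nupr1, but -0.33 between Ddit3 and Ppp1r15a and 0.080 between Chac1 and Ddit3. The 12 points are 6 groups that share genotype and day, so these values describe the groups rather than independent samples. The genes whose pattern was most like that of Atf4 were Stam (0.974), Arfgef1 (0.969) and Tnfrsf12a (0.969). For Ddit3 they were Rragc (0.962), Atxn2l (0.962) and Clcn5 (0.951), for Trib3 they were Moxd1 (0.967), Epha1 (0.955) and Cars (0.948), and for Asns they were Gpr137b (0.964), Rhou (0.930) and Agap1 (0.930), all over the same 12 arrays.

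The other genes of the pathway were read from 6 lists. Upstream of ATF4, 8 eIF2alpha kinases and their regulators were measured. Of these, 1, 1 and 3 were higher in knockout cells on days 1.5, 3 and 6, and 0 were lower on any day, where 5.93%, 13.3% and 17.2% of all genes were higher and 3.98%, 10.0% and 15.3% lower. The 1 called on day 1.5 was Impact, at 0.20 (limma adjusted p = 0.037), so no kinase gene was called on that day. The haem-regulated kinase gene Eif2ak1 was at 0.35 on day 3 (limma adjusted p = 0.0042). Its mean intensity on days 1.5, 3 and 6 was 306, 219 and 308 in controls and 309, 279 and 316 in knockout cells. It was thus lowest on day 3 in both genotypes. On day 6 the RNA-sensing kinase gene Eif2ak2 was at 0.57, Impact, which inhibits rather than activates GCN2, at 0.45, and Eif2ak3, the ER kinase PERK, at 0.27. Another probe set of Impact gave -0.55 on day 6 and passed the threshold in the opposite direction, so its direction is uncertain. Of the 11 measured genes of eIF2, its exchange factor eIF2B and the constitutive phosphatase, 1 was higher on each day (Eif2b4, at 0.23, 0.69 and 0.33). The mean intensity of Eif2b4 on the 3 days was 2094, 1613 and 2063 in controls and 2454, 2596 and 2595 in knockout cells. In this list 0, 1 and 4 genes were lower on the 3 days, where 3.98%, 10.0% and 15.3% of all genes were, so that its counts on days 1.5 and 3 are near the background. The lower ones were, among them Ppp1r15b on day 3 (-0.23) and Eif2b3 (-0.46), Eif2s3x (-0.37) and Eif2b5 (-0.28) on day 6. Its brightest members that did not pass, Eif2s2 and Ppp1cc, stood at 0.052 and -0.074 on day 6.

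Among 14 bZIP partners and Tribbles relatives, 1, 0 and 1 were higher and 2, 4 and 4 were lower in knockout cells on days 1.5, 3 and 6. Over all genes 5.93%, 13.3% and 17.2% were higher and 3.98%, 10.0% and 15.3% lower on those days. Fos, an immediate early gene, had the largest difference, -1.33 on day 1.5 (limma adjusted p = 5.7e-05) and -0.72 on day 6. Its mean intensity was 279 ± 23.9, 215 ± 4.12 and 464 ± 4.22 in knockout cells and 699 ± 31.3, 202 ± 16.1 and 762 ± 50.1 in controls (SD, n = 2 each) on the 3 days, so the day 3 controls were low for Fos as they were for Atf3. Jun, the partner of Fos in AP-1, had a log2 difference of -0.52 on day 1.5 but 0.49 on day 6. The oxidative stress factor gene Nfe2l2 was at 0.22 on day 1.5 and -0.28 on day 3. On day 3 the small Maf gene Maff (-0.66) and the repressor gene Jdp2 (-0.46) were lower, and on day 6 Cebpd (-0.68) and Trib2 (-0.49). Second probe sets of Jdp2, Cebpd and Trib2 did not pass on those days.

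The amino acid and redox targets of ATF4 were the list with most lower calls. Of 30 measured, 2, 2 and 3 were higher and 5, 14 and 15 lower in knockout cells on days 1.5, 3 and 6, with medians of -0.024, -0.20 and -0.29, beside all-gene medians near 0 given above. Over all genes 5.93%, 13.3% and 17.2% were higher and 3.98%, 10.0% and 15.3% lower. The alanine aminotransferase gene Gpt2 was higher on day 1.5, at 0.36 (limma adjusted p = 0.0030), and was at -0.30 on day 6. The neutral amino acid transporter gene Slc1a5 was at -0.56, -1.18 and -1.37 on the 3 days (limma adjusted p = 5.0e-06 on day 6). Pck2, a mitochondrial enzyme of phosphoenolpyruvate synthesis, was at -0.93 on day 3 and -1.54 on day 6. Shmt2, which passes serine carbon to folate in mitochondria, fell to an intensity of 1437 ± 5.73 in knockout cells on day 6, against 3435 ± 48.0 in controls (SD, n = 2 each, -1.26 in log2). Cbs, of the transsulfuration route, was at -1.11 on day 6, and the mTORC1 inhibitor gene Ddit4 at -0.75 and the lipoprotein receptor gene Vldlr at -0.93 on day 3. The mean intensity of Ddit4 on the 3 days was 1677, 3181 and 1954 in controls and 1407, 1899 and 1897 in knockout cells. Its day 3 controls were thus high, while knockout cells rose less. The bright members Eif4ebp1 and Slc7a5 did not pass on day 6, at -0.075 and 0.088. In controls 9 of the 30 were higher and 0 lower on day 6 than on day 1.5, with the fragility given above for that contrast. Over all genes 1.09% were higher and 0.473% lower there. In knockout cells 7 were higher and 9 lower over the same interval, where 15.9% of all genes were higher and 14.3% lower.

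The ER chaperones and unfolded protein response genes were mostly higher in knockout cells on days 3 and 6. Of 17 measured, 0 were called on day 1.5, 11 were higher and 1 lower on day 3, and 11 were higher and 0 lower on day 6, with medians of -0.0084, 0.21 and 0.18. Over all genes 13.3% were higher and 10.0% lower on day 3, and 17.2% higher and 15.3% lower on day 6. On day 3 against day 1.5, 6 of the 17 were lower and 1 higher in controls. In knockout cells 1 was lower and 6 were higher over that interval. Over all genes 18.2% were lower and 9.12% higher in controls, and 13.7% lower and 6.97% higher in knockout cells. Dnajb9, an ER co-chaperone, had a mean intensity of 979.6 ± 28.2 in knockout cells on day 6, against 452 ± 5.70 in controls (SD, n = 2 each), a log2 difference of 1.11 (limma adjusted p = 1.1e-06). The ER-stress-induced gene Creld2 was at 0.59 on day 3 and 0.68 on day 6. Its mean intensity on days 1.5, 3 and 6 was 1166, 826 and 1140 in controls and 1081, 1241 and 1825 in knockout cells. The day 3 difference of Creld2 therefore holds a fall in controls as well as a rise in knockout cells. Calr, an ER calcium-binding chaperone, was at 0.52 and the secreted ER protein gene Manf at 0.47 on day 6, while on day 3 the disulfide isomerase gene Pdia4 was at 0.44 and the transcription factor gene Xbp1 at 0.40. Ern1, which encodes the sensor IRE1alpha, was the 1 lower gene, at -0.43 on day 3. The bright chaperone gene Hsp90b1 did not pass on either day, at 0.12 and 0.098. On day 6 against day 1.5, 0 of the 17 were called in controls, where 1.09% of all genes were higher and 0.473% lower. That 0 is near the background of a contrast that called few genes. In knockout cells 13 were higher and 0 lower over this interval, where 15.9% of all genes were higher and 14.3% lower.

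Of 10 mitochondrial chaperones and proteases, 1, 2 and 1 were higher and 0, 1 and 3 lower in knockout cells on days 1.5, 3 and 6. Over all genes 5.93%, 13.3% and 17.2% were higher and 3.98%, 10.0% and 15.3% lower, so most of these counts are near the background. The protease gene Clpp was at 0.72 on day 3 and 0.48 on day 6, and the protease gene Htra2 at 0.25 on day 1.5 and 0.41 on day 3. The chaperone genes Dnaja3 (-0.24), Trap1 (-0.22) and Hspd1 (-0.21) were lower on day 6. Hspe1, which encodes the partner of HSPD1, did not pass, at -0.11.

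**Figure D4:**
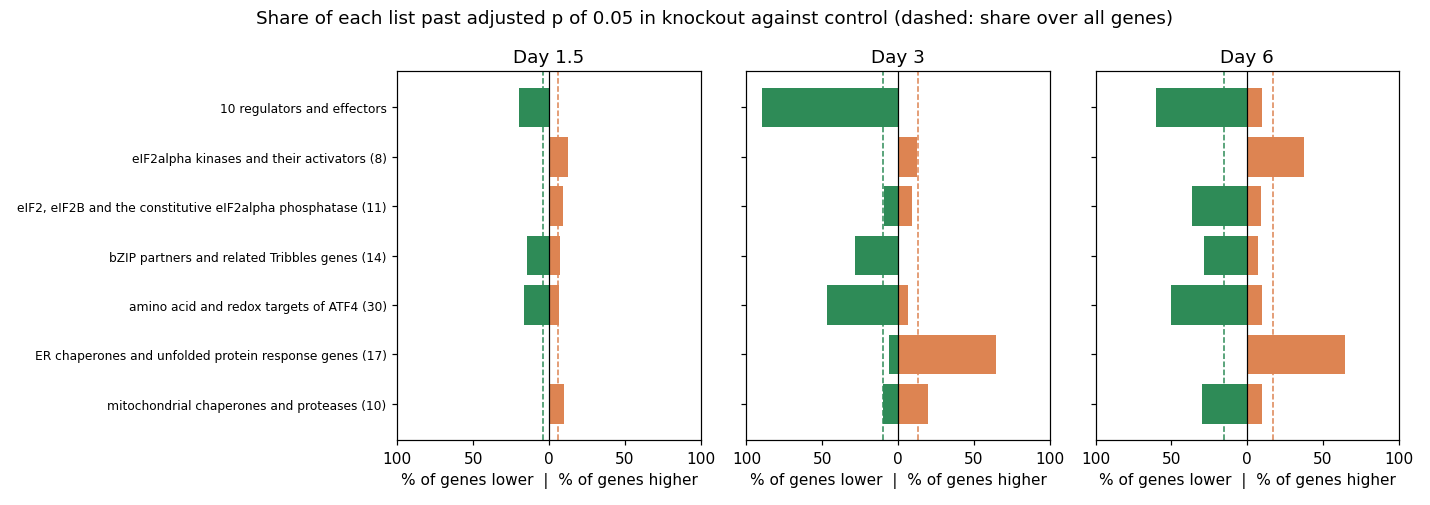
Percentage of the measured genes of each list (x axes) called higher (bars to the right of 0) and lower (bars to the left) in knockout cells than in controls on days 1.5, 3 and 6, for the 10 members and the 6 pathway lists. Dashed lines mark the percentages over all 18194 genes. The bars of the ER chaperone list extend to the higher side on days 3 and 6, and those of the members and of the ATF4 target list to the lower side.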

How the data were processed

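Expression was measured with Affymetrix arrays in mouse ES cells of 2 genotypes on 3 days. Per the submitters' processing notes, RMA was used by the authors to obtain the deposited linear intensities; its version is not given there. The method subtracts background, quantile-normalizes and summarizes the probes of a set. Intensities of different probe sets are not comparable. The marker sums are therefore read only between groups for the same probe sets, and bright probe sets weigh most in them. The precision is limited by the 12 arrays, 2 per group. The deposited intensity values were taken to log2 and fitted in limma 3.58.1 (R 4.3.3), with a mean per genotype and day over all 12 arrays, eBayes (6 residual and 3.04 prior degrees of freedom) and Benjamini-Hochberg adjustment over 18194 genes, each called at an adjusted p of 0.05. Other probe sets were fitted in a run over all 45101. Of these, 34958 had 1 gene symbol in the platform annotation, 932 several and 9211 none, and only the first were named. The planned test allowed for linear or log2 values, and the values proved linear.

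The 10 members and the 6 pathway lists were chosen with earlier results of these data known, and no test was made on a list. Besides the members, the text names from each list up to 4 genes past the threshold with the largest difference per day and bright members that did not pass, and for 4 members the 3 genes with the highest correlation. Alternatives were a replicate block, only the arrays compared, median centring, quantile normalization, the mean of probe sets, a filter on the dimmest 40% of genes, eBayes with trend and robust, the controls of all days as reference and each array left out. The replicate numbers were not taken to pair arrays. The fit was tested on simulated data. Promoters came from RefSeq (GRCm38.p6) and all 10 members matched. Of the listed genes, Eif2s1, Pycr1 and Gdf15 were not analysed here.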

Additional observations from a re-analysis of the deposited data

Results flagged for a closer look

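The knockout effect differed between days, by the interaction term in limma, for the members named here. Values are the later effect minus the earlier one, on the log2 scale. Over all genes, the effect moved up for 7.62% and down for 7.34% between days 1.5 and 3. These shares were 9.32% and 10.0% between days 1.5 and 6, and 7.69% and 8.75% between days 3 and 6. Between days 1.5 and 3 the effect moved down for Nupr1 (-0.80, adjusted p = 0.00055), Asns (-0.55, adjusted p = 0.00085) and Cebpb (-0.46, adjusted p = 0.0075). Between days 1.5 and 6 it moved up for Ddit3 (0.89, adjusted p = 0.0030), Atf3 (0.64, adjusted p = 0.022) and Atf5 (0.47, adjusted p = 0.014). Over the same interval it moved down for Cebpb (-0.50, adjusted p = 0.0034), Nupr1 (-0.49, adjusted p = 0.0041), Asns (-0.32, adjusted p = 0.0080) and Chac1 (-0.32, adjusted p = 0.017). Between days 3 and 6 it moved up for Ddit3 (1.36, adjusted p = 0.00067), Atf5 (0.72, adjusted p = 0.0025), Nupr1 (0.31, adjusted p = 0.038) and Asns (0.23, adjusted p = 0.043). The intervals share arrays. Nupr1 and Asns between days 3 and 6 lost the call in 14 and 16 of 19 other settings, Atf3 and Chac1 between days 1.5 and 6 in 5 and 4 of 20, and Ddit3 between days 1.5 and 6 in 1 of 20. No cause of these differences was tested.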

How the results depend on the processing

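The number of genes called differed with how the spread was estimated. With only the arrays compared, limma called 455 genes (1803 in the fit over 12 arrays) for knockout against control on day 1.5 and 2506 (4250) on day 3, 2829 (4966) for control day 3 against day 1.5, 2150 (3757) for knockout day 3 against day 1.5, and 0 (285) for control day 6 against day 1.5. That last contrast gave 187 genes with the mean of probe sets, 660 without the dimmest 40% and 894 with trend and robust, which gave 2756 for day 1.5. Against the controls of all days, day 1.5 gave 3274. With 1 array left out, the counts ranged from 714 to 1946, 2727 to 4070 and 4314 to 6031 for the knockout effect on days 1.5, 3 and 6, from 3156 to 4771 and 18 to 259 for controls of days 3 and 6 against day 1.5, from 1998 to 3978 and 3964 to 5651 for knockout cells, and from 1724 to 2445, 2546 to 3705 and 1883 to 2754 for the change of the effect, day 3 against 1.5, day 6 against 1.5 and day 6 against 3. Of 100 member values, the replicate block changed 4 calls, in controls of day 6 (Trib3 adjusted p = 0.072, Chac1 0.052) and in the change between days 3 and 6 (Nupr1 0.051, Asns 0.059), and changed no other call. Deviations of same-numbered arrays correlated at -0.057 to 0.17 over 15 pairs of groups, with 1 over 0.1, so the numbers were not taken to pair arrays. Its count for control day 6 was 210. The sign turned for small values only, none of them past the threshold in the fit over 12 arrays. Against the controls of all days these were Asns (-0.032) and Cebpb (-0.19, adjusted p = 0.026) on day 1.5 and Atf4 (0.074) and Atf3 (0.33, adjusted p = 0.017) on day 6. With the mean of probe sets, Atf4 was at 0.032 in knockout against control on day 6 and 0.053 in controls of day 3. After quantile normalization, Chac1 was at 0.047 in controls of day 3 and Asns at 0.0020 in knockout cells of day 6. With 1 array left out, the ranges that include 0 were Ddit3 -0.13 to 0.090 on day 1.5, Ppp1r15a -0.14 to 0.021 on day 3, Atf3 -0.11 to 0.0057 on day 6, Atf4 -0.15 to 0.0035 and Chac1 -0.10 to 0.0096 in controls of day 3, Chac1 -0.046 to 0.0073 in knockout cells of day 6, Atf4 -0.14 to 0.0099 for the change between days 1.5 and 3, and Cebpb -0.11 to 0.023 between days 3 and 6. The cause was not tested beyond what each alternative changes by construction. Without the 4 arrays of day 3, a fit added after seeing the data, 48 of 50 member values kept their direction and their side of the threshold. Dim probe sets, such as the dimmest of Atf4 and of Ddit3, limit what small differences can be read.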
